A study of Mus musculus with 2 samples.

Results

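General capillary endothelial cells of the mouse lung were compared between 1 library from animals given 1V209-Cho-Lip and 1 library from animals given PBS. A droplet barcode counted as a general capillary cell when it had at least 500 unique molecular identifiers (UMIs, each 1 captured RNA molecule), at least 200 genes and at most 20% mitochondrial UMIs, and met a marker rule. The rule asked for S100a8 and S100a9 below 3% of UMIs, a sum of at least 2 over the endothelial genes Cdh5, Cldn5, Pecam1 and Egfl7, and at least 1 UMI of Gpihbp1 or Plvap. It allowed at most 1 UMI of Car4 and Ednrb together and at most 1 of Vwf, and no UMI of Ptprc, Gja5, Prox1, Sftpb or Col1a2. It selected 979 treated and 999 PBS barcodes, 1978 of the 28280 that passed the cell filters.

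The lungs came from female BALB/c mice carrying orthotopic K7M2 tumours, K7M2 being a BALB/c osteosarcoma line that spreads to the lung. Tissue of 3 mice was pooled into the single library of each group, so no test over samples was possible and no p-value is given. 1V209 is a synthetic agonist of Toll-like receptor 7 (TLR7), an endosomal sensor of single-stranded RNA. The dose, the schedule and the time of sampling were not given in the sources used here. A response to 1V209-Cho-Lip and any other difference between the pools or libraries cannot be told apart. Counts were summed over the selected barcodes of each library, called treated and PBS members below, and scaled to a common library size (CPM). Ratios are treated over PBS, and the 95% interval that follows a ratio covers counting error only.

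General capillary cells line most of the alveolar capillary bed. They anchor lipoprotein lipase at the vessel surface through GPIHBP1, control vessel tone and the passage of leukocytes, and act as progenitors after injury. The other capillary type, the Car4-positive aerocyte, lies against the thin alveolar wall where gas is exchanged. Like other endothelial cells, general capillary cells display MHC class I, can display MHC class II, and respond to interferons, tumour necrosis factor, interleukin 6 (IL-6) and shear stress.

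The markers outside the rule set the members apart from Car4 capillary and leukocyte barcodes, but not all of them from the few Vwf-high barcodes (64 treated and 48 PBS). Ptprb, a vascular phosphatase, stood at 2823 CPM in treated and 2848 CPM in PBS members, against 978 CPM in treated and 962 CPM in PBS Car4 capillary barcodes. Vwf-high barcodes had 2970 CPM of it in treated and 3562 CPM in PBS. At least 1 Ptprb UMI was found in 92.7% of treated and 92.2% of PBS members. In leukocyte barcodes, whose median depths of 2706 UMIs in treated and 2407 UMIs in PBS exceeded those of the members, the shares were 4.08% of treated and 2.8% of PBS. Aplnr, the apelin receptor, was sparse at 115 CPM in treated and 158 CPM in PBS members. It had a UMI in 17.5% of treated and 20.2% of PBS members, and in 0.213% of treated and 0.289% of PBS leukocyte barcodes. Car4 capillary barcodes, of greater median depth, had one in 9.91% of treated and 15.9% of PBS. Their Aplnr level was 42.1 CPM in treated and 77.4 CPM in PBS. Cd93, Sema3c, Hmcn1 and Kit, the other markers outside the rule, lay above the Car4 capillary level in both libraries. Kit and Sema3c also lay above the Vwf-high level in both, whereas Cd93 at 1130 CPM and Hmcn1 at 983 CPM in PBS members were below the 1642 CPM and 1438 CPM of PBS Vwf-high barcodes. The rule itself selected on Gpihbp1, at 2371 CPM in treated and 2356 CPM in PBS members, and on Plvap, a diaphragm protein of endothelial pores, at 1359 CPM in treated and 1190 CPM in PBS members. Cldn5, a tight-junction protein also in the rule, stood at 2297 CPM in treated and 1715 CPM in PBS members.

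**Figure D1:**
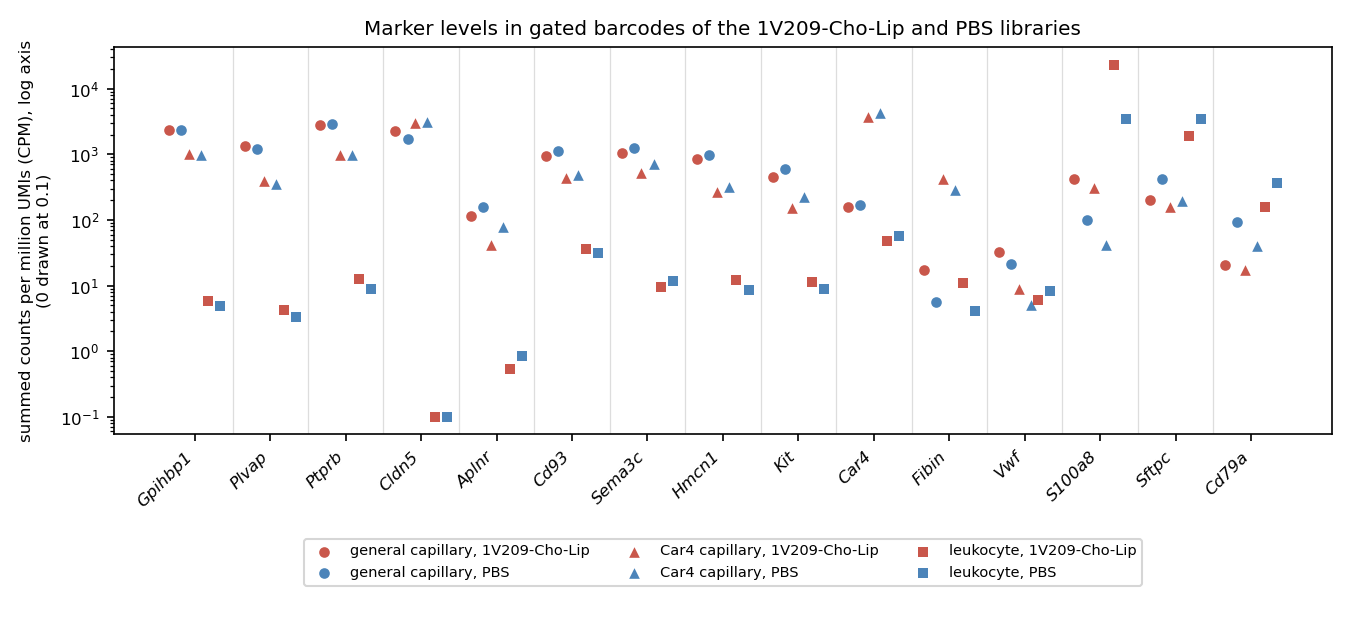
Summed level of marker genes in CPM on a log axis, in general capillary (circles), Car4 capillary (triangles) and leukocyte (squares) barcodes of the 1V209-Cho-Lip (red) and PBS (blue) libraries. Ptprb, Cd93, Sema3c, Hmcn1 and Kit lie higher in general capillary than in Car4 capillary barcodes of both libraries; S100a8 stands at 414 CPM in treated and 100 CPM in PBS members.

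Treated and PBS members had nearly equal depth, with a median of 1555 UMIs and 950 genes in treated and 1561 UMIs and 966 genes in PBS members. Their summed counts were 1793885 UMIs in treated and 1807473 UMIs in PBS members. The rule limits depth from above by asking for 0 UMIs of several genes, and only 18 treated and 21 PBS members held over 5000 UMIs. Of the deposited barcodes 268 occurred in both libraries, 2 of them as members in both. A doublet caller marked 47 treated and 51 PBS members, which were left in. RNA of other cells was present and differed between the libraries. S100a8 was seen in 48.8% of treated and 8.11% of PBS members. Scgb1a1, the club-cell secretory protein, was seen in 83.5% of treated and 76.9% of PBS members, near its share in leukocyte barcodes. At the edge of the rule, the 146 treated and 130 PBS members with a single Gpihbp1 or Plvap UMI had 1935 CPM of Ptprb in treated and 1848 CPM in PBS. The 208 treated and 211 PBS barcodes that missed only this requirement had 1028 CPM in treated and 920 CPM in PBS.

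General capillary cells made up 7.14% (6.71 to 7.58%) of kept treated barcodes and 6.86% (6.46 to 7.28%) of kept PBS barcodes, with exact Clopper-Pearson intervals. The ratio of 1.04 (0.951 to 1.14) had a counting interval that included 1. The treated library held far more barcodes rich in S100a8 and S100a9, and the share ratio depended on the denominator. Among barcodes with these genes below 3% of UMIs, members made up 11.1% of treated and 7.71% of PBS barcodes, a ratio of 1.45 (1.32 to 1.58). Among barcodes that passed the endothelial part of the rule they made up 24.8% of treated and 21.6% of PBS barcodes, a ratio of 1.14 (1.05 to 1.25). Car4 capillary barcodes, chosen by at least 3 UMIs of Car4 and Ednrb, numbered 777 in treated and 1008 in PBS. Their share ratio was 0.818 (0.744 to 0.899) over kept barcodes and 0.899 (0.818 to 0.989) over endothelial ones.

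Within the members, treated cells carried more RNA of immediate early genes, of acute-phase and IL-6 family genes such as Cebpd and Lrg1, and of glucocorticoid-responsive genes. They carried less of several guanylate-binding proteins, the MHC class II genes Cd74 and H2-DMa, the chemokine Cxcl12 and the vasoconstrictor Edn1. The marker Ptprb had a ratio of 0.991 (0.953 to 1.03), and Gpihbp1, which the rule selected on, 1.01 (0.964 to 1.05). The other markers outside the rule were all below 1, short of 1.5-fold. Their ratios were 0.728 for Aplnr, 0.737 for Kit, 0.838 for Sema3c, 0.842 for Cd93 and 0.859 for Hmcn1. Of 7945 genes with at least 50 UMIs over both libraries, 862 (10.8%) were past 1.5-fold higher and 616 (7.75%) past 1.5-fold lower. The median log2 ratio over all genes with at least 20 UMIs was -0.04.

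**Figure D2:**
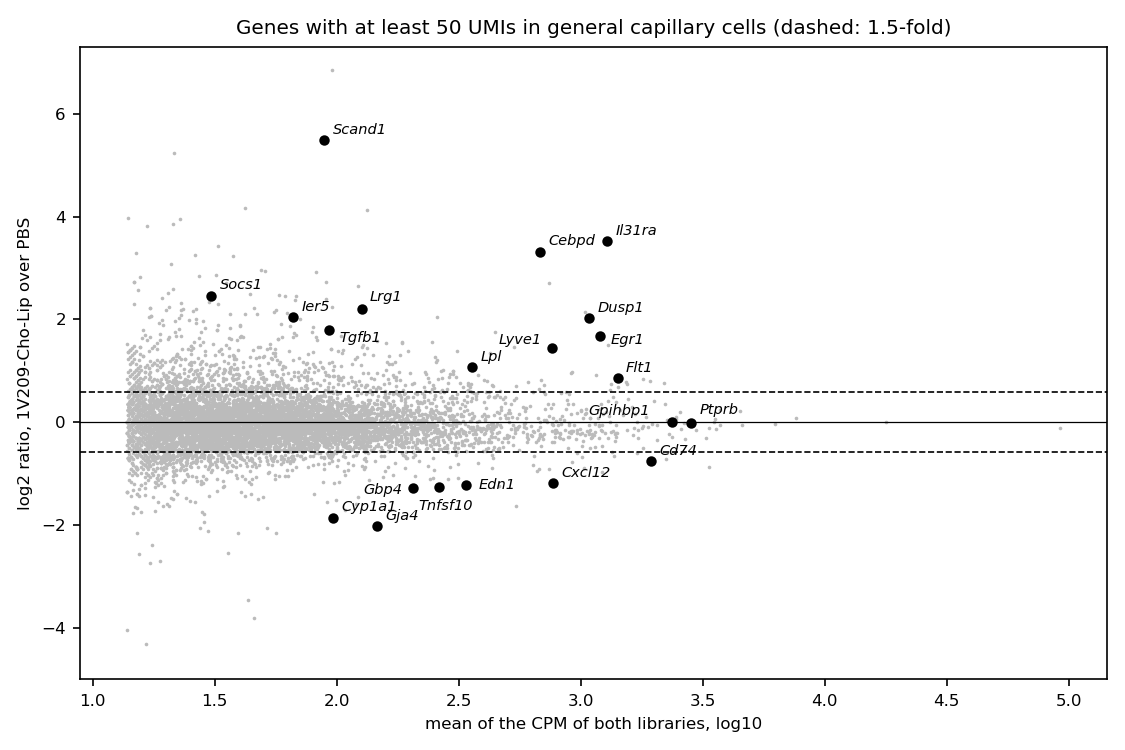
Each grey point is a gene with at least 50 UMIs in general capillary cells; the x axis is the log10 of its mean CPM over both libraries and the y axis its log2 ratio, 1V209-Cho-Lip over PBS, with dashed lines at 1.5-fold. Ptprb and Gpihbp1, the second a gene that the rule selected on, lie near the zero line, Cebpd at a log2 ratio of 3.32 and Gja4 at -2.03.

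The highest ratios are given in 3 groups. Genes of the first group were also several times higher in leukocyte barcodes, which are not endothelial. Scand1, a SCAN-domain gene (chr2:156311847-156312704 in mm10), was counted 313 times in treated and 7 times in PBS members, a ratio of 45.1 (21.6 to 113), and its ratio was 46.8 in leukocyte barcodes. Il31ra, a subunit of the interleukin 31 receptor (chr13:112519898-112594360), had 2369 CPM in treated and 206 CPM in PBS members, with a ratio of 11.5 (10.3 to 12.8) against 8.41 in leukocyte barcodes. Cebpd, a transcription factor of the acute-phase response (chr16:15887286-15891031), had 1239 CPM in treated and 124 CPM in PBS members, with a ratio of 10 (8.71 to 11.5), and was found in 603 treated and 167 PBS cells. Its ratio was 17.3 in Car4 capillary and 31.4 in leukocyte barcodes. The other genes of this group were Iscu, an iron-sulphur cluster scaffold, Eif3f, a translation initiation subunit, Mir6236, annotated as a microRNA gene, Fam104a, Tamalin and Mtarc2. The ratios of these 6 ran from 5.51 to 7.72 in members and from 3.71 to 6.24 in leukocyte barcodes.

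Genes of the second group had much of their count in very few barcodes. Ccl21a, a lymphatic chemokine, had 344 UMIs in 9 treated members and 0 UMIs in PBS members, at least 116-fold higher against a floor of 3 counts over the group, but 187 and 131 of these UMIs lay in 2 cells. The first of these cells also held 21 UMIs of Mmrn1, another lymphatic gene, although it had no Prox1 UMI. Igfbp5, an insulin-like growth factor binding protein, had 451 UMIs in treated and 26 UMIs in PBS members, and 387 of the treated UMIs lay in 1 barcode of 11574 UMIs. The same barcode gave 136 of the 282 treated Igfbp6 UMIs and 91 of the 156 treated Rarres2 UMIs. It also held 62 UMIs of Msln and 46 of Upk3b, both mesothelial genes. Leaving out members that carried defining RNA of another cell type took out the cells with most Ccl21a UMIs. Ccl21a was then under 20 UMIs, too few for a ratio to be read. Igfbp5, Igfbp6 and Rarres2 then had ratios of 0.528, 2.4 and 1.72. At the low end Jchain, the antibody joining chain, had 11 UMIs in treated and 155 UMIs in PBS members, and 1 PBS barcode held 120 of them.

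The remaining genes, Fam110d and Lhfpl3, were seen in under 9% of members of either library. Fam110d (chr4:134251110-134254106), whose level outside the endothelial rule was under 1 CPM in both libraries, had 61.3 CPM in treated and 9.41 CPM in PBS members, with a ratio of 6.52 (3.89 to 11.6) against 12 in Car4 capillary barcodes, and was found in 86 treated and 15 PBS cells. Lhfpl3 had 75.3 CPM in treated and 13.3 CPM in PBS members, with a ratio of 5.67 (3.65 to 9.15) against 1.89 in Car4 capillary and 0.417 in leukocyte barcodes, and was found in 70 treated and 19 PBS cells.

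Several of the genes with the lowest ratios act in vessels. Gja4, which encodes the gap-junction protein connexin 37 (chr4:127311421-127314039), had 57.4 CPM in treated and 235 CPM in PBS members, with a ratio of 0.244 (0.195 to 0.304), and was found in 87 treated and 258 PBS members. Cyp1a1, a target of the aryl hydrocarbon receptor (chr9:57687928-57703824), had 41.8 CPM in treated and 152 CPM in PBS members, with a ratio of 0.275 (0.21 to 0.356). Edn1, the endothelin precursor (chr13:42301476-42307990), had 204 CPM in treated and 476 CPM in PBS members, with a ratio of 0.428 (0.378 to 0.485). Tnfsf10, the death ligand TRAIL, had 155 CPM in treated and 371 CPM in PBS members, with a ratio of 0.418 (0.362 to 0.482). Ratios were 0.357 for Ntrk2, a neurotrophin receptor, 0.38 for Depp1, a FOXO-responsive gene, and 0.42 for Ankrd44, and lay between 0.348 and 0.39 for St8sia4, Nhsl1, Frmd4a, Gchfr and Ypel2. All of these genes except Depp1, at 0.945, were past 1.5-fold lower in Car4 capillary barcodes too, Gja4 with 0.303 and Cyp1a1 with 0.2. In leukocyte barcodes 29.8% of all genes with at least 20 UMIs were past 1.5-fold lower. There Edn1, Tnfsf10, Depp1, Nhsl1, Frmd4a, Gchfr and Ypel2 were too, and Cyp1a1, with 1 UMI in treated and 12 UMIs in PBS. Ankrd44 had 0.805 there, St8sia4 0.826, Ntrk2 1 and Gja4, from 29 UMIs in treated and 8 UMIs in PBS, 3.24.

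**Figure D3:**
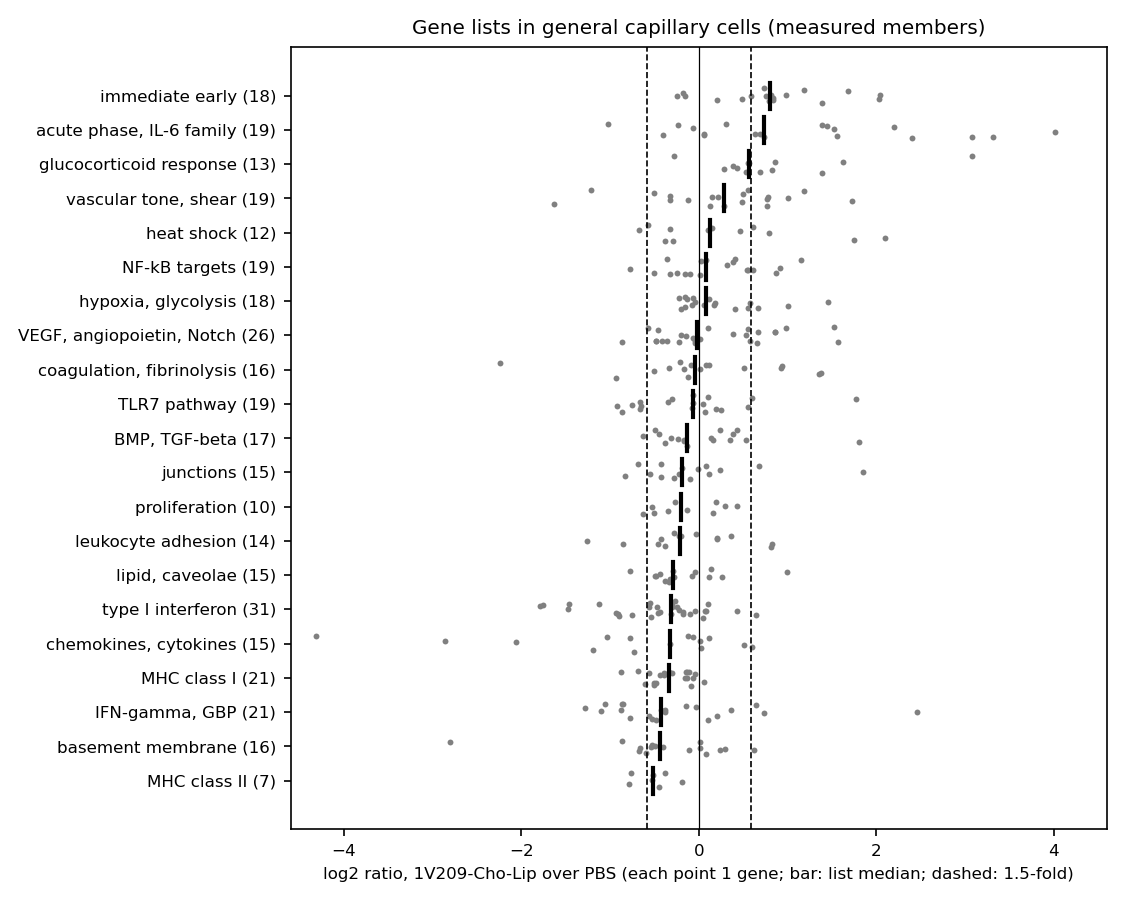
Log2 ratio, 1V209-Cho-Lip over PBS, of each gene in 21 lists (points) with the list median (bars) and dashed lines at 1.5-fold; the number of measured genes is in parentheses. The immediate early list has the highest median, 0.80, and the MHC class II list the lowest, -0.52.

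Immediate early genes encode transcription factors and feedback proteins that cells switch on within minutes of a stimulus, tissue dissociation included. Of the 18 in the list 13 were past 1.5-fold higher and 0 lower, with a median log2 ratio of 0.80. Of all 10411 genes with at least 20 UMIs, 13.4% were past 1.5-fold higher and 10.9% lower. These are the shares to set beside every list count over all members below. Dusp1, a phosphatase that switches off MAP kinases, had 1737 CPM in treated and 426 CPM in PBS members, with a ratio of 4.08 (3.77 to 4.42). Egr1, a zinc-finger activator, had 1836 CPM in treated and 573 CPM in PBS members, with a ratio of 3.21 (2.99 to 3.44). Nr4a1, an orphan nuclear receptor gene, had 452 CPM in treated and 173 CPM in PBS members, with a ratio of 2.62 (2.3 to 2.99). Ier5 had a ratio of 4.12 (2.98 to 5.79), the AP-1 members Jun and Junb had 1.7 and 1.75, and Btg2, an antiproliferative gene, had 1.79. The AP-1 gene with the highest level in PBS members was below the threshold: Fos had 2726 CPM in treated and 2374 CPM in PBS members, with a ratio of 1.15 (1.1 to 1.2). Klf6, Zfp36l1 and Myc, also below it, had ratios of 0.882, 0.843 and 0.902. In Car4 capillary barcodes 14 of 18 were past 1.5-fold higher, where 11.6% of all genes were, and in leukocyte barcodes 9 of 18, where 13.5% were.

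Proximal promoters are shown for 3 of these genes, as the stretch in which the cyclic AMP response element (CRE) known from the Fos promoter would lie. They are the 250 bases before the RefSeq start site on GRCm38.p6, 5′ to 3′ on the gene's strand, with the CRE half-site TGACG or its reverse complement CGTCA in capitals.
Dusp1, chr17:26508473-26508722, minus strand: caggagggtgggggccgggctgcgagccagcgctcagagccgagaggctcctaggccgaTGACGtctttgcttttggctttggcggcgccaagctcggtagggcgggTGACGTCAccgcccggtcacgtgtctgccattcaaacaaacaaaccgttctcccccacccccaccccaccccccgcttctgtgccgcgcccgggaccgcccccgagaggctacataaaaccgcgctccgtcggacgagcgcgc
Nr4a1, chr15:101266596-101266845, plus strand: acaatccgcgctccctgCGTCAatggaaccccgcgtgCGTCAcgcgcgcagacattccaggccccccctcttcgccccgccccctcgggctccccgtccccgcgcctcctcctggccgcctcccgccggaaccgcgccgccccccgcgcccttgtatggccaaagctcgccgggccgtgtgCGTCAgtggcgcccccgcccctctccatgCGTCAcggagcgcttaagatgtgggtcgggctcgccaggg
Fos, chr12:85473640-85473889, plus strand: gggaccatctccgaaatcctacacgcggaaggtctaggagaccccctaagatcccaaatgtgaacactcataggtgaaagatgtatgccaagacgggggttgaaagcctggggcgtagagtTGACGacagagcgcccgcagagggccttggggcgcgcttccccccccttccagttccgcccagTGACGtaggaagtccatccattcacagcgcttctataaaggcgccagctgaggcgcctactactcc
Dusp1 had 3 half-sites, of which those at 143 and 140 bases before the start overlap in the palindrome TGACGTCA, Nr4a1 had 4 and Fos 2. Searched on both strands, the half-site lay in 7 of the 15 immediate early promoters in the RefSeq table and in 17.9% of 27025 mouse promoters of the same length. The CArG box, the site of serum response factor, matched within these 250 bases in 1 of the 15 and in 1.4% of all. Sites further upstream were not searched. Fos, with 2 half-sites, had a ratio of 1.15, and Dusp1 and Nr4a1 had 4.08 and 2.62. A match is a stretch of letters and not evidence of binding.

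The immediate early signal was uneven among cells. Each cell was thinned to 1000 UMIs, which left out 201 treated and 212 PBS cells that were shallower. The list then contributed a median of 12 UMIs (interquartile range 4 to 33) in treated and 5 UMIs (2 to 15) in PBS cells. Fos, Atf3, Zfp36, Junb, Btg2, Jun, Ier2 and Egr1 were among the 25 genes with the highest ratio of variance to mean over cells in both libraries. That ratio was 7.25 in treated and 8.19 in PBS cells for Fos, where the median over 1453 genes was 1.11 in treated and 1.09 in PBS cells. Cells with almost none of this RNA thus stood beside cells with much of it in each library.

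**Figure D4:**
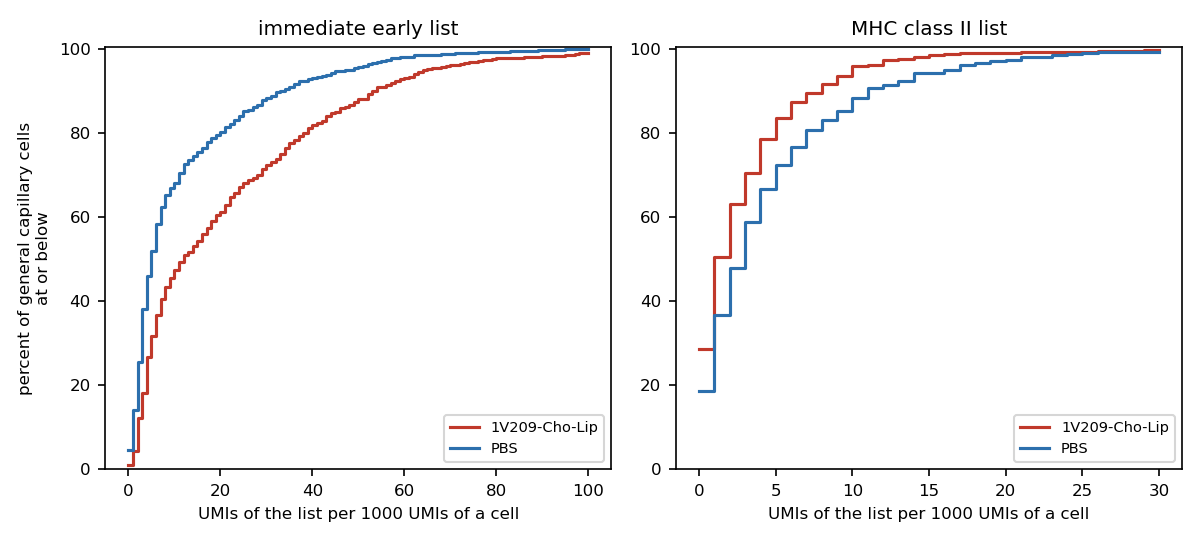
Share of general capillary cells (y axis, percent) with at most a given number of UMIs of the immediate early list (left) or the MHC class II list (right) per 1000 UMIs of the cell, in the 1V209-Cho-Lip (red) and PBS (blue) libraries. The immediate early medians are 12 in treated and 5 in PBS cells, the MHC class II medians 1 in treated and 3 in PBS cells.

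Acute-phase and IL-6 family genes, through which cells answer IL-6, oncostatin M and interleukin 1, had a median log2 ratio of 0.73. Of 19 measured 12 were past 1.5-fold higher and 1 lower, against 13.4% and 10.9% of all genes. Beside Cebpd, Lrg1, a secreted glycoprotein that modifies TGF-beta signalling in vessels (chr17:56119678-56122001), had 208 CPM in treated and 45.4 CPM in PBS members, with a ratio of 4.58 (3.6 to 5.89). Socs3, the feedback inhibitor of the IL-6 receptor, had 541 CPM in treated and 327 CPM in PBS members, with a ratio of 1.66 (1.49 to 1.84). Stat3, the transcription factor of that receptor, had 328 CPM in treated and 211 CPM in PBS members, with a ratio of 1.55 (1.36 to 1.77). Osmr, the oncostatin M receptor, had 174 CPM in treated and 108 CPM in PBS members, with a ratio of 1.62 (1.35 to 1.94), while the shared receptor subunit Il6st had a ratio of 0.85 (0.731 to 0.988). Mt1, a metal-binding protein, had a ratio of 2.63 (2.22 to 3.11). Il1r1, the interleukin 1 receptor, was the member past 1.5-fold lower, at 14.5 CPM in treated and 29.3 CPM in PBS members. Saa3, an acute-phase amyloid gene, had 48 UMIs in treated and 0 UMIs in PBS members, and Lcn2, an iron-trapping lipocalin, had 67 UMIs in treated and 8 UMIs in PBS members. Both were also carried by leukocyte barcodes, Saa3 at 155 CPM in treated and 6.84 CPM in PBS, and Lcn2 at 991 CPM in treated and 132 CPM in PBS. What carried-over RNA gives to these low counts was not tested. In Car4 capillary barcodes 11 of 18 genes of the list were higher and 0 lower.

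Glucocorticoid-responsive genes had a median log2 ratio of 0.57. Of 13 measured 6 were past 1.5-fold higher and 0 lower, against 13.4% and 10.9% of all genes. Fkbp5, a chaperone of the glucocorticoid receptor, had 54.6 CPM in treated and 17.7 CPM in PBS members, with a ratio of 3.09 (2.05 to 4.75). Cdkn1a, the cell-cycle inhibitor p21, had 1766 CPM in treated and 1092 CPM in PBS members, with a ratio of 1.62 (1.53 to 1.71). Errfi1, which restrains the EGF receptor, had 76.4 CPM in treated and 42 CPM in PBS members. Just short of the threshold lay Tsc22d3, the classical target GILZ, at 451 CPM in treated and 305 CPM in PBS members with a ratio of 1.48 (1.33 to 1.65), and Ddit4 at 1.48 and Zbtb16 at 1.44. Sgk1, a kinase of the same set, had 0.822 (0.729 to 0.926). Lcn2 and Mt1 stand in both this list and the acute-phase list.

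Targets and regulators of NF-kB had a median log2 ratio of 0.08. Of 19 measured 4 were past 1.5-fold higher and 1 lower, against 13.4% and 10.9% of all genes. Ier3, a stress-induced survival gene, had 1512 CPM in treated and 803 CPM in PBS members, with a ratio of 1.88 (1.77 to 2.01). Tnfaip3, the A20 brake on NF-kB, had 95.3 CPM in treated and 52 CPM in PBS members, with a ratio of 1.83 (1.42 to 2.38). Nfkbiz, a nuclear cofactor of NF-kB, had 278 CPM in treated and 183 CPM in PBS members, with a ratio of 1.52 (1.32 to 1.76). The abundant inhibitor Nfkbia had 1127 CPM in treated and 1068 CPM in PBS members, with a ratio of 1.06 (0.991 to 1.12). Tnip1, an A20 partner, was the lower member at 0.581 (0.394 to 0.85).

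Of 31 genes stimulated by type I interferon 1 was past 1.5-fold higher and 9 lower, where 13.4% of all genes were higher and 10.9% lower, and the median log2 ratio was -0.31. The abundant Ifitm3, an antiviral membrane protein, had 2938 CPM in treated and 3612 CPM in PBS members, with a ratio of 0.813 (0.784 to 0.844). Isg15, a ubiquitin-like modifier, had 202 CPM in treated and 250 CPM in PBS members, with a ratio of 0.811 (0.704 to 0.933). Bst2, the tetherin gene, had 331 CPM in treated and 487 CPM in PBS members, with a ratio of 0.678 (0.61 to 0.753). The lowest was Rsad2, an antiviral enzyme, with 23 UMIs in treated and 80 UMIs in PBS members, of which 28 lay in 1 PBS cell of 9294 UMIs. Among members with at most 5000 UMIs its ratio was 0.476, and 1 of 30 list genes was higher and 9 lower, where 13% of all genes were higher and 11.4% lower. In Car4 capillary barcodes the median was -0.05, with 1 of 29 higher and 2 lower against 11.6% and 9.61% of all genes. In leukocyte barcodes the median was 0.41, where that of all genes was -0.32. There 12 of 32 were higher and 4 lower, against 13.5% and 29.8% of all genes.

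Genes induced by interferon gamma differed by family. Of 21 measured 3 were past 1.5-fold higher and 7 lower, where 13.4% of all genes were higher and 10.9% lower. The median log2 ratio was -0.43. The lower genes were led by the guanylate-binding proteins, GTPases that attack intracellular pathogens. Gbp4 (chr5:105115767-105139586) had 120 CPM in treated and 292 CPM in PBS members, with a ratio of 0.411 (0.349 to 0.483). Gbp2 (chr3:142620602-142638008) had 100 CPM in treated and 210 CPM in PBS members, with a ratio of 0.479 (0.398 to 0.573). Gbp5 (chr3:142493978-142522344) had 26.8 CPM in treated and 57.5 CPM in PBS members, with a ratio of 0.465 (0.323 to 0.661). The related Gbp9 had 0.548, Gbp3 0.554 and Gbp8 0.583, while Gbp7 had 0.678 (0.573 to 0.803), just short of the threshold. Gbp2b, named for its ratio among all genes, had 44 UMIs in treated and 117 UMIs in PBS members, with a ratio of 0.379. Gbp4 and Gbp9 overlap in the annotation and the family is closely related in sequence, so counts may be split between members.

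The immunity-related GTPases, which mark vacuoles of pathogens, lay nearer 1, with 0.767 for Iigp1, 0.694 for Igtp, 0.981 for Irgm2 and 1.28 for Irgm1. Ciita, the master regulator of MHC class II, had 22.9 CPM in treated and 42 CPM in PBS members, with a ratio of 0.544 (0.362 to 0.805). The higher members, whose share was near that of all genes, were regulators. Irf1, an interferon response factor, had 824 CPM in treated and 529 CPM in PBS members, with a ratio of 1.56 (1.44 to 1.69). Socs1, the feedback inhibitor of the interferon receptors, had 93 UMIs in treated and 17 UMIs in PBS members, with a ratio of 5.51 (3.26 to 9.86), and Socs3 was the third. Among Car4 capillary barcodes Gbp4 had 0.601, Gbp2 0.842 (0.699 to 1.01) and Socs1 23.4.

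Promoters of 3 guanylate-binding protein genes of chromosome 3 are shown because these genes were lower together and are known targets of interferon response factors. The interferon-stimulated response element (ISRE), searched as GAAA, any 2 bases and GAAA again, and the gamma-activated site (GAS), searched as TTCNNNGAA, are in capitals on either strand, in the 250 bases before the RefSeq start site on GRCm38.p6.
Gbp2, chr3:142620413-142620662, plus strand: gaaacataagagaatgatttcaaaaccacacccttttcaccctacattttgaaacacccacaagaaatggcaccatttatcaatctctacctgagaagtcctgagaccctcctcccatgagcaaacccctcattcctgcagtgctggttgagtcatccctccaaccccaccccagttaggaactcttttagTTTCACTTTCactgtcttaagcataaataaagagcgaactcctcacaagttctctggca
Gbp3, chr3:142559794-142560043, plus strand: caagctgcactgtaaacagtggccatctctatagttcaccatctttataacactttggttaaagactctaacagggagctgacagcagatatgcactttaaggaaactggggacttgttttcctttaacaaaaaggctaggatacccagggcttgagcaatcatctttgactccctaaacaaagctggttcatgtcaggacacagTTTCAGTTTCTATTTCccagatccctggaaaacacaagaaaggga
Gbp5, chr3:142496684-142496933, plus strand: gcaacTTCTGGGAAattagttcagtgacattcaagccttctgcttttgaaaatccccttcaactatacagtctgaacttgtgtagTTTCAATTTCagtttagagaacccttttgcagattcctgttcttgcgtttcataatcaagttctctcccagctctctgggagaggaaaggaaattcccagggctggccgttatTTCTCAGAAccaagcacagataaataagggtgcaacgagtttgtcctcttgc
Gbp2 had 1 ISRE match, Gbp3 had 2 that overlap, and Gbp5 had 1 ISRE match with GAS matches at 245 and 52 bases before the start. The ISRE letters lay in 10 of the 17 interferon gamma list promoters in the table, in 11 of 23 type I list promoters, and in 3.04% of all 27025. The GAS letters lay in 9 of the 17, in 5 of the 23, and in 7.18% of all.

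Of 7 class II MHC genes 0 were past 1.5-fold higher and 2, Cd74 and H2-DMa, lower, against 13.4% and 10.9% of all genes. The median log2 ratio was -0.52. Cd74, the class II invariant chain, had 1439 CPM in treated and 2444 CPM in PBS members, with a ratio of 0.589 (0.561 to 0.618). The class II chain genes H2-Ab1, H2-Aa and H2-Eb1 had ratios of 0.767, 0.691 and 0.732, and the peptide loader H2-DMa had 0.579. Per 1000 UMIs the list contributed a median of 1 UMI (interquartile range 0 to 4) in treated and 3 UMIs (1 to 6) in PBS cells. Leukocyte barcodes carried more Cd74, 2964 CPM in treated and 4847 CPM in PBS, with a ratio of 0.612. RNA of other cells was thus lower for this gene as well, and its part in the members' difference was not tested.

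The class I heavy chain genes were abundant and near 1. H2-K1 had 3239 CPM in treated and 3493 CPM in PBS members, with a ratio of 0.927, and H2-D1 had 0.962. B2m, the light chain, had 2817 CPM in treated and 3130 CPM in PBS members, with a ratio of 0.9. The genes that cut and load peptides had lower ratios, with 0.679 for the immunoproteasome subunit Psmb8, 0.655 for the peptide transporter Tap2, 0.619 for Pdia3 and 0.544 for the chaperone Calr. Of 21 class I pathway genes 0 were higher and 3 lower, a share near the 10.9% of all genes, with a median log2 ratio of -0.34. The lower count depended on the cells kept. Without members with an S100a8, S100a9 or Lyz2 UMI 9 of 21 were lower, where 18.7% of all genes were. In Car4 capillary barcodes the median was -0.07 with 0 in either direction.

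Chemokine and cytokine genes had 1 of 15 past 1.5-fold higher and 7 lower, against 13.4% and 10.9% of all genes. The median log2 ratio was -0.32. Cxcl12, which holds CXCR4-bearing cells at vessels (chr6:117168535-117181367), was the most abundant, with 472 CPM in treated and 1076 CPM in PBS members and a ratio of 0.438 (0.404 to 0.476). It was found in 349 treated and 554 PBS members, and its ratio was 0.475 in Car4 capillary barcodes. Il15, a cytokine that sustains natural killer cells, had 30 UMIs in treated and 62 UMIs in PBS members, with a ratio of 0.488 (0.304 to 0.766). The 3 CXCR3 ligands, which draw T cells, were rare. Cxcl11 had 0 UMIs in treated and 60 UMIs in PBS members, all in 4 cells, Cxcl9 had 3 UMIs in treated and 22 UMIs in PBS members, and Cxcl10 had 29 UMIs in treated and 50 UMIs in PBS members. Among members with at most 5000 UMIs 3 of 13 list genes were higher and 5 lower, against 13% and 11.4% of all genes. Cxcl1, a neutrophil attractant, was the higher member among all cells, at 26.8 CPM in treated and 17.7 CPM in PBS members. Its relative Cxcl2 had 207 UMIs in 161 treated members and 206 UMIs in 74 PBS members, and leukocyte barcodes held it at 4068 CPM in treated and 1481 CPM in PBS. Ackr3, a scavenger receptor of CXCL12, had a ratio of 1.09 (0.867 to 1.36).

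Of 14 adhesion genes 2 were past 1.5-fold higher and 2 lower, near the 13.4% and 10.9% of all genes. The median log2 ratio was -0.21. Icam1, which arrests rolling neutrophils (chr9:21015985-21028817), had 524 CPM in treated and 300 CPM in PBS members, with a ratio of 1.75 (1.57 to 1.95), and had 1.58 in Car4 capillary barcodes. Its constitutive relative Icam2 had 676 CPM in treated and 882 CPM in PBS members, with a ratio of 0.766 (0.71 to 0.826). Sele, Selp and Vcam1, adhesion genes of activated larger vessels, were near 0, with 4, 14 and 11 UMIs in treated and 0, 8 and 20 UMIs in PBS members. Cd47, the signal that spares cells from phagocytosis, had 1.15 (1.04 to 1.27).

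Genes of vessel tone and shear response had a median log2 ratio of 0.28. Of 19 measured 6 were past 1.5-fold higher and 2 lower, against 13.4% and 10.9% of all genes. On the dilator side Ptgs1, the constitutive cyclooxygenase (chr2:36230426-36252272), had 142 CPM in treated and 42.6 CPM in PBS members, with a ratio of 3.32 (2.57 to 4.35). Ptgis, prostacyclin synthase, had 54 UMIs in treated and 24 UMIs in PBS members. Nos3, endothelial nitric oxide synthase, had 49.1 CPM in treated and 28.8 CPM in PBS members, with a ratio of 1.71 (1.2 to 2.45). Klf4 and Klf2, factors induced by laminar flow, had ratios of 1.72 (1.58 to 1.88) and 1.4 (1.28 to 1.55), and Npr3, the natriuretic peptide clearance receptor, had 1.7 (1.51 to 1.91). The lower genes were Edn1 and the adenosine receptor gene Adora2a, the second with 8 UMIs in treated and 25 UMIs in PBS members. Hpgd, which breaks down prostaglandins, had 1491 CPM in treated and 2115 CPM in PBS members, with a ratio of 0.705 (0.671 to 0.741). Ramp2 and Calcrl, which form the adrenomedullin receptor, had ratios of 1.16 and 0.802. Ace, the angiotensin-converting enzyme, had 1559 CPM in treated and 1427 CPM in PBS members.

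Of the genes of coagulation and fibrinolysis 4 of 16 were past 1.5-fold higher and 2 lower, against 13.4% and 10.9% of all genes. The median log2 ratio was -0.04. Genes of the plasminogen system were among those higher. Plaur, the urokinase receptor, had 611 CPM in treated and 240 CPM in PBS members, with a ratio of 2.55 (2.28 to 2.86). Plat, tissue plasminogen activator, had 92 CPM in treated and 35.4 CPM in PBS members, with a ratio of 2.6 (1.94 to 3.52). Serpine2, a serine protease inhibitor, had 17 UMIs in treated and 9 UMIs in PBS members. F8, coagulation factor VIII, was lower with 4 UMIs in treated and 19 UMIs in PBS members, and Serpinb6b had a ratio of 0.524. The anticoagulant receptor gene Thbd had 738 CPM in treated and 1043 CPM in PBS members, with a ratio of 0.707 (0.659 to 0.759). These counts depended on the cells kept. Without members with an S100a8, S100a9 or Lyz2 UMI 2 of 12 were higher and 5 lower, where 16.5% and 18.7% of all genes were. The median was then -0.28, and Plaur and Plat had ratios of 2.04 and 1.52.

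The VEGF, angiopoietin and Notch list had a median log2 ratio of -0.02, and its receptors and ligands differed in direction. Of 26 measured 7 were past 1.5-fold higher and 1 lower, against 13.4% and 10.9% of all genes. Flt1, the decoy-like VEGF receptor 1 (chr5:147561604-147726011), had 1827 CPM in treated and 1010 CPM in PBS members, with a ratio of 1.81 (1.71 to 1.92). Kdr, the signalling receptor 2, had 256 CPM in treated and 357 CPM in PBS members, with a ratio of 0.717 (0.635 to 0.809). Among Car4 capillary barcodes Flt1 had 1.25 (1.19 to 1.31) and Kdr 0.716. Dll1, a Notch ligand (chr17:15367354-15376872), had 220 CPM in treated and 74.1 CPM in PBS members, with a ratio of 2.96 (2.43 to 3.63). The receptor Notch1 had 307 CPM in treated and 194 CPM in PBS members, with a ratio of 1.58, and the Notch target Hes1 had a ratio of 2.86 (2.06 to 4.03). The other ligand Dll4 had 1 (0.866 to 1.17) and the target Hey1 had 0.907. The angiopoietin receptor Tek had 899 CPM in treated and 1157 CPM in PBS members, with a ratio of 0.777. Esm1, a gene of growing vessels, had 179 CPM in treated and 99 CPM in PBS members, with a ratio of 1.81, from 99 treated and 87 PBS cells. Cxcr4, the receptor of CXCL12, was the lower member at 25.1 CPM in treated and 45.9 CPM in PBS members, with a ratio of 0.546 (0.371 to 0.794).

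Among genes of the BMP and TGF-beta pathways 1 of 17 was past 1.5-fold higher and 1 lower, Smad9, with 9 UMIs in treated and 14 UMIs in PBS members. Tgfb1, the ligand (chr7:25687002-25705077), was the higher member, with 144 CPM in treated and 41.5 CPM in PBS members and a ratio of 3.48 (2.68 to 4.56). Its ratio was 3.88 in Car4 capillary and 1.47 in leukocyte barcodes. The type II receptor gene Tgfbr2 had 0.71 (0.556 to 0.905). The abundant receptors Bmpr2, Eng and Acvrl1, and Tmem100, their downstream gene in arteries, had ratios between 0.851 and 1.18.

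Genes of lipid handling and caveolae had a median log2 ratio of -0.29, with 1 of 15 past 1.5-fold higher and 1 lower. Cd36, a fatty acid transporter, had 1815 CPM in treated and 2290 CPM in PBS members, with a ratio of 0.793. Cav1, the caveolar coat protein, had 1128 CPM in treated and 1161 CPM in PBS members, with a ratio of 0.972, and its partner Cavin2 had 0.71. Cavin3 was higher, with 116 UMIs in treated and 59 UMIs in PBS members. Lpl, the lipase that GPIHBP1 carries, belongs to the marker list (chr8:68880491-68907448). It had 486 CPM in treated and 231 CPM in PBS members, with a ratio of 2.1 (1.87 to 2.36), against 2.17 in Car4 capillary and 0.557 in leukocyte barcodes. Of the 15 junction genes outside the rule 2 were higher and 2 lower, with a median of -0.19. Ctnnb1, beta-catenin, had 405 CPM in treated and 253 CPM in PBS members, with a ratio of 1.6 (1.42 to 1.81). Tjp1, a tight-junction scaffold, had 0.685, and Ctnna1 and Esam had 0.934 and 1.06.

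Basement membrane genes had a median log2 ratio of -0.44. Of 16 measured 1 was past 1.5-fold higher and 5 lower, against 13.4% and 10.9% of all genes. Sparc, a collagen-binding glycoprotein, had 784 CPM in treated and 1247 CPM in PBS members, with a ratio of 0.629 (0.588 to 0.672). Col4a1, a chain of type IV collagen, had 502 CPM in treated and 791 CPM in PBS members, with a ratio of 0.635 (0.583 to 0.69), and its partner Col4a2 had 0.691 (0.622 to 0.767). Nid1, a linker of the same membrane, stood at 120 CPM in both libraries, with a ratio of 1.01. Among members with at most 5000 UMIs the counts were 1 higher and 1 lower of 13 measured, with a median of -0.10 and ratios of 0.637 for Sparc and 0.681 for Col4a1.

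The receptor genes Tlr7, Tlr8 and Tlr9 were sparse in the members, while the TLR7 pathway list summed to 1157 CPM in treated and 1648 CPM in PBS members. Tlr7 had 6 UMIs in treated and 7 UMIs in PBS members, and in leukocyte barcodes it stood at 22.6 CPM in treated and 31.1 CPM in PBS. Tlr8 had 4 UMIs in each library, and Tlr9 had 1 UMI in treated and 0 UMIs in PBS members. Of 19 measured genes of the pathway 2 were past 1.5-fold higher and 6 lower, against 13.4% and 10.9% of all genes. The median log2 ratio was -0.06. Unc93b1, which carries nucleic-acid receptors to endosomes, had 78 UMIs in treated and 124 UMIs in PBS members, with a ratio of 0.634 (0.471 to 0.848). The chaperones Hsp90b1 and Cnpy3 had 0.529 (0.488 to 0.573) and 0.595. The adaptor gene Myd88 had 90 UMIs in treated and 62 UMIs in PBS members, with a ratio of 1.46 (1.05 to 2.06).

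Genes of other vessel types were compared as well. Lyve1, a hyaluronan receptor known from lymphatic vessels (chr7:110850607-110863239), had 1120 CPM in 521 treated members and 412 CPM in 301 PBS members, with a ratio of 2.72 (2.5 to 2.96). No treated cell held more than 22 and no PBS cell more than 18 of its UMIs. Its ratio was 3.03 in Car4 capillary barcodes, and leukocyte barcodes held 8.45 CPM in treated and 4.05 CPM in PBS. The lymphatic list had a median log2 ratio of 1.26 with 4 of 6 past 1.5-fold higher and 1 lower. Without members with defining RNA of another cell type that median was 0.37 over 3 genes, with 1 higher and 1 lower, and Lyve1 had 2.72. This setting takes out cells that hold lymphatic genes such as Ccl21a, so the lower median follows in part from the setting itself. Among arterial genes Sox17, a transcription factor, had 1.56 (1.36 to 1.79) beside the low Gja4, Efnb2 had 0.977 and Sema3g 0.861, and the list had a median of -0.03 with 3 of 9 higher and 2 lower. The venous list had 0.33 with 3 of 7 higher, and its abundant members Prss23 and Ephb4 had 1.24 (1.09 to 1.4) and 1.26 (1.07 to 1.48).

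Of 11 Car4 capillary genes outside the rule 3 were higher, with a median log2 ratio of 0.11. Prx had a ratio of 1.66 and Fibin had 31 UMIs in treated and 10 UMIs in PBS members, while Kdr and Nckap5 had 0.717 and 0.887. The pan-endothelial list had a median of -0.28 with 1 of 16 higher, Flt1, and 2 lower. The lower members were Emcn, an endothelial sialomucin, at 0.614 (0.525 to 0.717), and Clec14a, an endothelial lectin, at 0.657 (0.613 to 0.703). The general capillary list outside the rule had a median of -0.25 with Lpl higher and Cxcl12 lower.

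**Figure D5:**
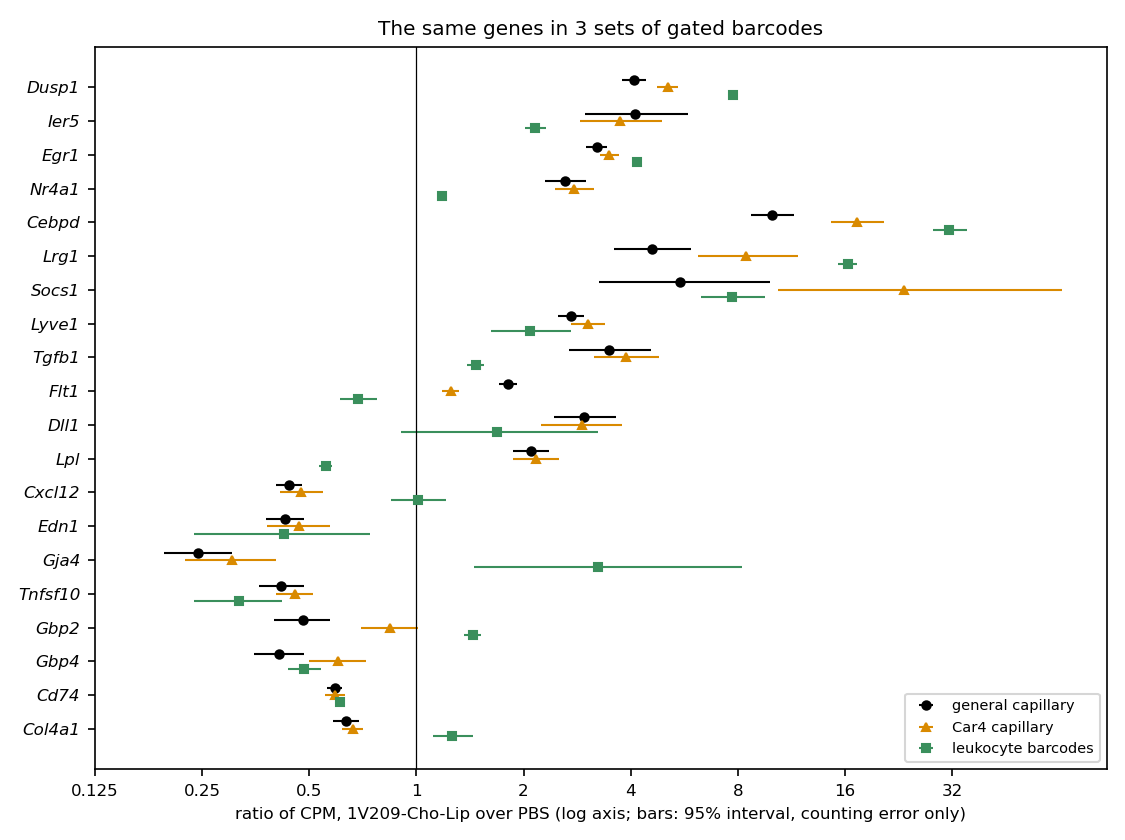
Ratio of CPM, 1V209-Cho-Lip over PBS, on a log axis for 20 genes in general capillary (black circles), Car4 capillary (orange triangles) and leukocyte (green squares) barcodes, with 95% intervals for counting error. The genes were chosen with their values known, and General and Car4 capillary barcodes lie on the same side of 1 for each gene shown. Flt1 is at 1.81 and 1.25, Gbp2 at 0.479 and 0.842. Chil3, Igfbp6 and Rarres2, which are not shown, lay on opposite sides.

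Set beside Car4 capillary cells, many of these differences had like values, and 1 library per group gives no test of a difference between the cell types. Dusp1 had ratios of 4.08 in members and 5.08 in Car4 capillary barcodes, Tgfb1 3.48 and 3.88, and Dll1 2.96 and 2.91. Among the lower genes Edn1 had 0.428 in members and 0.467 in Car4 capillary barcodes, Cxcl12 0.438 and 0.475, and Cd74 0.589 and 0.591. The values lay further apart for Hpgd, at 0.705 in members and 0.986 in Car4 capillary barcodes. In level, as a description of how the gates differ, the genes most above the Car4 capillary level in both libraries were Scgb3a1, Esm1, Ntn1, Grp and Cxcl12. Scgb3a1 was uneven among members, with a variance to mean ratio of 9.68 in treated and 3.34 in PBS cells. The median over genes was 1.11 in treated and 1.09 in PBS cells. The part of carried-over RNA in the Scgb3a1 level was not tested. The level of Cxcl12 in members was 3.82 times that in Car4 capillary barcodes in the treated and 4.14 times in the PBS library, and that of Edn1 3.58 and 3.9 times. Ccdc184, Alpl, Rgs6, Fndc1 and Dpysl5 lay furthest below it. Apln, the apelin ligand, had 4.46 CPM in treated and 6.64 CPM in PBS members, against 111 CPM in treated and 127 CPM in PBS Car4 capillary barcodes.

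Markers of other cell types differed between the libraries, and their part in the results above was not tested. All 11 measured neutrophil genes outside the rule were past 1.5-fold higher. With S100a8 and S100a9 the list summed to 1885 CPM in treated and 615 CPM in PBS members, against 84663 CPM in treated and 16000 CPM in PBS leukocyte barcodes. The 7 measured lymphocyte genes were all lower, with Cd79a, a B-cell receptor subunit, at 20.6 CPM in treated and 92.4 CPM in PBS members, and the list summed to 71.4 CPM in treated and 262 CPM in PBS members. Ptprc was at 0 by the rule. Erythroid and platelet genes summed to 526 CPM in treated and 1382 CPM in PBS members, with 5 of 8 lower. Epithelial genes summed to 4420 CPM in treated and 5794 CPM in PBS members, with 7 of 12 higher and 3 lower, and 3 PBS cells held 960 to 2222 UMIs of Scgb1a1 each. Hopx, a homeodomain gene of alveolar type 1 cells, had 1220 CPM in treated and 622 CPM in PBS members, but 3136 CPM in treated and 1994 CPM in PBS Car4 capillary barcodes. Fibroblast and mural genes summed to 386 CPM in treated and 217 CPM in PBS members, with 4 of 9 higher and 1 lower. Monocyte and macrophage genes summed to 485 CPM in treated and 544 CPM in PBS members, with 3 of 9 higher and 2 lower and Lyz2 at 278 CPM in treated and 378 CPM in PBS members. Def8, Tafa1, Hmga2 and Col1a1, the measured genes of a list for a tumour-like cluster, were all lower, Def8 with 46.3 CPM in treated and 136 CPM in PBS members.

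The main counts were repeated without some of the cells that carried such RNA, and the cells kept still held RNA of this kind. All 10 neutrophil genes measured without members with defining RNA of another cell type were still past 1.5-fold higher. So were all 3 measured without members with an S100a8, S100a9 or Lyz2 UMI. These repeats therefore do not separate carried-over RNA from the members' own. Leaving out the 58 treated and 91 PBS members with defining RNA of another cell type gave 767 genes higher and 616 lower, and 12 of 18 immediate early, 12 of 19 acute-phase and 8 of 13 glucocorticoid genes higher, where 12.1% of genes with at least 20 UMIs were higher and 11.9% lower. Leaving out every member with an S100a8, S100a9 or Lyz2 UMI left 132 treated and 527 PBS cells. These gave 511 genes higher and 560 lower of 3982 with at least 50 UMIs, so the lower genes were then the more numerous, and of genes with at least 20 UMIs 16.5% were higher and 18.7% lower. In these cells 12 of 17 immediate early genes, 6 of 11 acute-phase genes and 7 of 12 glucocorticoid genes were higher, and 10 of 20 interferon gamma and 3 of 6 class II genes lower. The ratios were 8.38 for Cebpd, 4.57 for Dusp1 and 2.62 for Lyve1, and 0.353 for Cxcl12, 0.434 for Edn1 and 0.62 for Cd74.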

How the data were processed

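Single-cell RNA of mouse lung was counted with Cell Ranger 9.0.1 on mm10, per the file headers and the submitters' processing notes, and the authors deposited raw UMI counts per gene and barcode, with no barcode under 500 UMIs. The sources used here do not give the annotation release. GENCODE M21 (mm10) held 52081 of the 55357 identifiers and supplied gene positions, and promoter sequences came from RefSeq on GRCm38.p6.

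Barcodes were filtered and selected as described, without removing doublets. Comparison barcodes passed the same filters: Car4 capillary barcodes met the endothelial and zero rules with Car4 and Ednrb at 3 UMIs or more and Vwf at 1 or less, and leukocyte barcodes had a Ptprc UMI and no UMI of the 4 endothelial genes. Counts were summed per library and ratios of CPM were given exact conditional binomial intervals. A floor of 3 counts stood in for a count of 0. List genes needed 20 UMIs over both libraries and counts past 1.5-fold needed 50, except where 20 is stated. The interval code was tested on simulated data.

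The 15 highest and the 15 lowest ratios of 3692 genes with 100 UMIs and 50 CPM or more were named. Genes of the rule, predicted, mitochondrial, ribosomal protein and haemoglobin genes, segments of antibody or T-cell receptor genes, and 65 genes below 25% of their level outside the endothelial rule were not eligible. List members were named when among the 4 with the highest counts or at either end of the list's ratios, and other members were chosen after their values were seen. The members and lists were chosen with earlier results of these data known, and the list for the tumour-like cluster was drawn from genes that led a cluster of these libraries. Alternatives changed the filters, the rule, the doublet treatment, the denominator, the scaling, the depth and the minimum counts. The 3 settings that left out cells with RNA of other cell types or over 5000 UMIs were added after seeing the data. Doublets were called with Scrublet in Scanpy 1.11.5, statistics used scipy 1.17.1 with numpy 2.4.6 and pandas 2.3.3 under Python 3.11.15, and plots used matplotlib 3.10.9. Some genes that these rules name are left out of the text.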

Additional observations from a re-analysis of the deposited data

Results flagged for a closer look

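Among the named and listed genes with at least 100 UMIs in each cell type, 3 were past 1.5-fold higher in general capillary and past 1.5-fold lower in Car4 capillary barcodes, treated over PBS, and the difference between the cell types was not tested. Chil3, a chitinase-like gene of macrophages and neutrophils, had a ratio of 1.58 in general capillary and 0.603 in Car4 capillary barcodes, from 77 UMIs in 62 treated and 49 UMIs in 36 PBS members. Igfbp6, an insulin-like growth factor binding protein, had 6.61 in general capillary and 0.515 in Car4 capillary barcodes. Rarres2, the chemerin gene, had 7.86 in general capillary and 0.331 in Car4 capillary barcodes. For these 2 genes 1 treated barcode of 11574 UMIs held 136 of 282 and 91 of 156 treated UMIs, and the ratios without members with defining RNA of another cell type were 2.4 and 1.72.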

How the results depend on the processing

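No paired analysis was possible because each group was 1 library and the labels give no replicate number. Of the alternative values for the named genes 510 stayed near the original, 57 moved and 3 changed direction; for list medians the numbers were 621, 24 and 1. The share ratio was 1.14 among endothelial barcodes and 1.45 among barcodes low in S100a8 and S100a9. With no filter beyond 1 UMI 5174 genes were higher and 4198 lower, and with 100 UMIs 529 and 303. Median-of-ratios scaling gave 956 higher and 539 lower and TMM scaling 916 and 563, so the higher share of these genes was 63.9% and 61.9%, against 58.3% with CPM. With an Aplnr UMI (171 treated and 202 PBS cells) 368 genes were higher and 365 lower, and medians were -0.14 for general capillary, -0.20 for Car4 capillary, -0.28 for venous, 0.69 for lymphatic, 0.42 for acute-phase and 0.81 for glucocorticoid genes. After thinning to 1000 UMIs they were 2.42 for lymphatic, 0.88 for immediate early and -0.12 for interferon gamma genes, and with CPM averaged over cells -0.05 for Car4 capillary and 0.89 for immediate early genes. With Gpihbp1 and Plvap summing to at least 3 the epithelial median was -0.24 and Igfbp5 had 0.609. Without members with defining RNA of another cell type the lymphatic median was 0.37, over the 3 genes still measured, and Igfbp5 had 0.528. Without members with an S100a8, S100a9 or Lyz2 UMI 511 genes were higher and 560 lower, a higher share of 47.7%, and Igfbp5 had 0.312. The cause was not tested; Igfbp5 rests on 1 barcode. Genes under 20 UMIs could not be compared at this depth.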

Other observations

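Heat shock genes, which encode chaperones, had a median log2 ratio of 0.13, with 4 of 12 past 1.5-fold higher and 1 lower. Hspb1, a small chaperone, had 68.6 CPM in treated and 16 CPM in PBS members, with a ratio of 4.27 (2.83 to 6.65), and was found in 98 treated and 28 PBS cells. The inducible HSP70 genes Hspa1a and Hspa1b had ratios of 1.73 and 3.36 and the co-chaperone Dnajb1 had 1.53, while Hspe1, the mitochondrial cofactor, had 0.627. In Car4 capillary barcodes Hspb1 had 4.49 and 3 of 12 genes of the list were higher.

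Genes of hypoxia and glycolysis had a median of 0.08, with 3 of 18 higher and 0 lower. Epas1, the HIF-2 alpha gene, had 3648 CPM in treated and 3497 CPM in PBS members, with a ratio of 1.04 (1.01 to 1.08), and the glycolytic genes Ldha and Aldoa had 0.961 and 0.917. Pfkfb3, a regulator of glycolysis, had 1.59 (1.19 to 2.13). Of 10 proliferation genes 0 were higher and 1 lower, with a median of -0.20, and Stmn1, a microtubule regulator, had 0.693 (0.608 to 0.79).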
